A study of Mus musculus with 7 samples.

Results

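Epithelial identity is kept by a small set of transcription and splicing regulators, and its surface hallmark is the classical cadherins, which join neighbouring cells and bind catenins inside them. The 9 genes described here were taken by name: the cadherins Cdh1 and Cdh3, the splicing factors Esrp1 and Esrp2, the grainyhead factors Grhl1 and Grhl2, the zinc finger factor Ovol2, and the ETS factors Ehf and Elf3. All 9 were measured among 18194 genes, on 17 of the 34958 probe sets that carry 1 gene symbol. A probe set is a group of short probes for 1 transcript, and a gene's value below is that of its brightest probe set unless another is named. In skin, E-cadherin (Cdh1) is found in all living layers of the epidermis, P-cadherin (Cdh3) mainly in its basal layer and the hair follicle. Zeb and Snail family repressors shut such genes off when epithelial cells take on mesenchymal traits.

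Cells with the surface antigens CD34 and Epcam had been sorted from mouse skin tumours raised with DMBA, a carcinogen, and TPA, a tumour promoter. Carcinomas, which are malignant, gave 4 arrays labelled 1, 2, 3 and GFP, and papillomas, which are benign, gave 3 arrays labelled 1, 2 and GFP. The series title concerns the nuclear receptor NR2F2 in the malignant state, and the sample descriptions place its name before the tumour type without giving a genotype. Strain, age and the meaning of the GFP tag are not given, nor whether arrays came from separate animals, so p-values measure the spread between these samples only.

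Both GFP arrays stood apart from the others. Array medians were 5.38 to 5.51 in all 7 arrays, but the signal of the Gapdh 3' control probe set exceeded that of the 5' one by 3.19 in each GFP array, against -0.04 to 0.06 in the untagged arrays, a difference used as a sign of RNA quality. All 12 endothelial and all 11 fibroblast markers measured lay higher in both GFP arrays than in every untagged array. As the log2 of their summed signal, endothelial markers reached 14.79 and 14.84 in the GFP arrays against 9.21 to 9.87 in the others, and fibroblast markers 15.40 and 16.19 against 9.79 to 12.88. Leukocyte markers gave 10.92 and 11.27 against 9.09 to 10.03 (4 of 9 genes above every untagged array), melanocyte markers 8.99 and 9.19 against 8.09 to 9.21 (2 of 6), and basal keratinocyte markers 14.97 and 14.97 against 15.51 to 16.24 (7 of 13 below every untagged array). RMA gives every probe set a positive value, so no marker is at 0. Tumour type differences below are therefore given with and without the GFP arrays, and tag differences are to be read beside these values.

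Cdh1 (probe set 1448261_at), whose protein holds epithelial cells together, differed mainly between tagged and untagged arrays. It had 11.61, 10.99 and 11.07 in carcinoma 1, 2 and 3, 8.76 in carcinoma GFP, 10.78 and 11.33 in papilloma 1 and 2, and 8.86 in papilloma GFP. The GFP arrays were lowest and lay 1.92 below the lowest untagged array, while the untagged carcinoma and papilloma arrays overlapped. Cdh3, the gene next to Cdh1 on chromosome 8 in the RefSeq order of coding genes, was read from 1426673_at and gave 8.14, 8.92, 8.92 and 5.41 in carcinoma 1, 2, 3 and GFP and 8.84, 8.48 and 5.66 in papilloma 1, 2 and GFP. Its gap between the GFP arrays and the lowest untagged array was 2.48, the widest of the 9 genes. Among the untagged arrays carcinoma 1 was highest for Cdh1 and lowest for Cdh3.

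Esrp1 and Esrp2 steer alternative splicing toward the epithelial forms of their target RNAs. Esrp1 (1454681_at) had 10.59, 10.58, 10.08 and 8.96 in carcinoma 1, 2, 3 and GFP, and 10.80, 9.97 and 9.23 in papilloma 1, 2 and GFP. Esrp2 (1433683_at) had 9.68, 9.64, 8.65 and 7.72 in the same carcinoma arrays, and 9.67, 8.42 and 7.94 in the papilloma arrays. In both genes the GFP arrays were lowest, and carcinoma 3 and papilloma 2 lay below the other untagged arrays, so the tumour types overlapped.

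Grhl1 and Grhl2 are grainyhead factors, which keep epithelial junction genes active and take part in barrier formation. Grhl2 (1427046_at) gave 9.47, 9.65, 9.30 and 7.24 in carcinoma 1, 2, 3 and GFP and 9.74, 8.97 and 7.50 in papilloma 1, 2 and GFP, with both GFP arrays 1.47 below the lowest untagged array. Grhl1 (1424030_at) gave 8.97, 8.71, 7.49 and 7.58 in these carcinoma arrays and 8.39, 7.18 and 7.40 in the papilloma arrays. It was the only one of the 9 genes whose GFP arrays were not the lowest: carcinoma 3 lay below carcinoma GFP, and papilloma 2 was lowest of all.

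Ovol2 represses mesenchymal genes, among them Zeb1. On 1449205_at it had 6.98, 6.99, 6.89 and 4.90 in carcinoma 1, 2, 3 and GFP and 7.25, 6.50 and 4.28 in papilloma 1, 2 and GFP. The untagged carcinoma arrays lay within 0.10 of each other, and both GFP arrays were 1.60 below the lowest untagged array. It was the only member whose mean over the 7 arrays lay below the median gene level of 6.64.

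Ehf and Elf3 are ETS factors of epithelial cells. Ehf (1451375_at) gave 8.35, 8.51, 9.36 and 7.48 in carcinoma 1, 2, 3 and GFP and 8.83, 7.61 and 6.10 in papilloma 1, 2 and GFP. Carcinoma 3 was highest, and carcinoma GFP was only 0.14 below papilloma 2. Elf3 (1416916_at) gave 7.37, 7.07, 6.78 and 6.38 in the carcinoma arrays and 7.35, 7.01 and 6.25 in the papilloma arrays. Its GFP arrays were lowest by 0.40, and the tumour types overlapped.

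**Figure D1:**
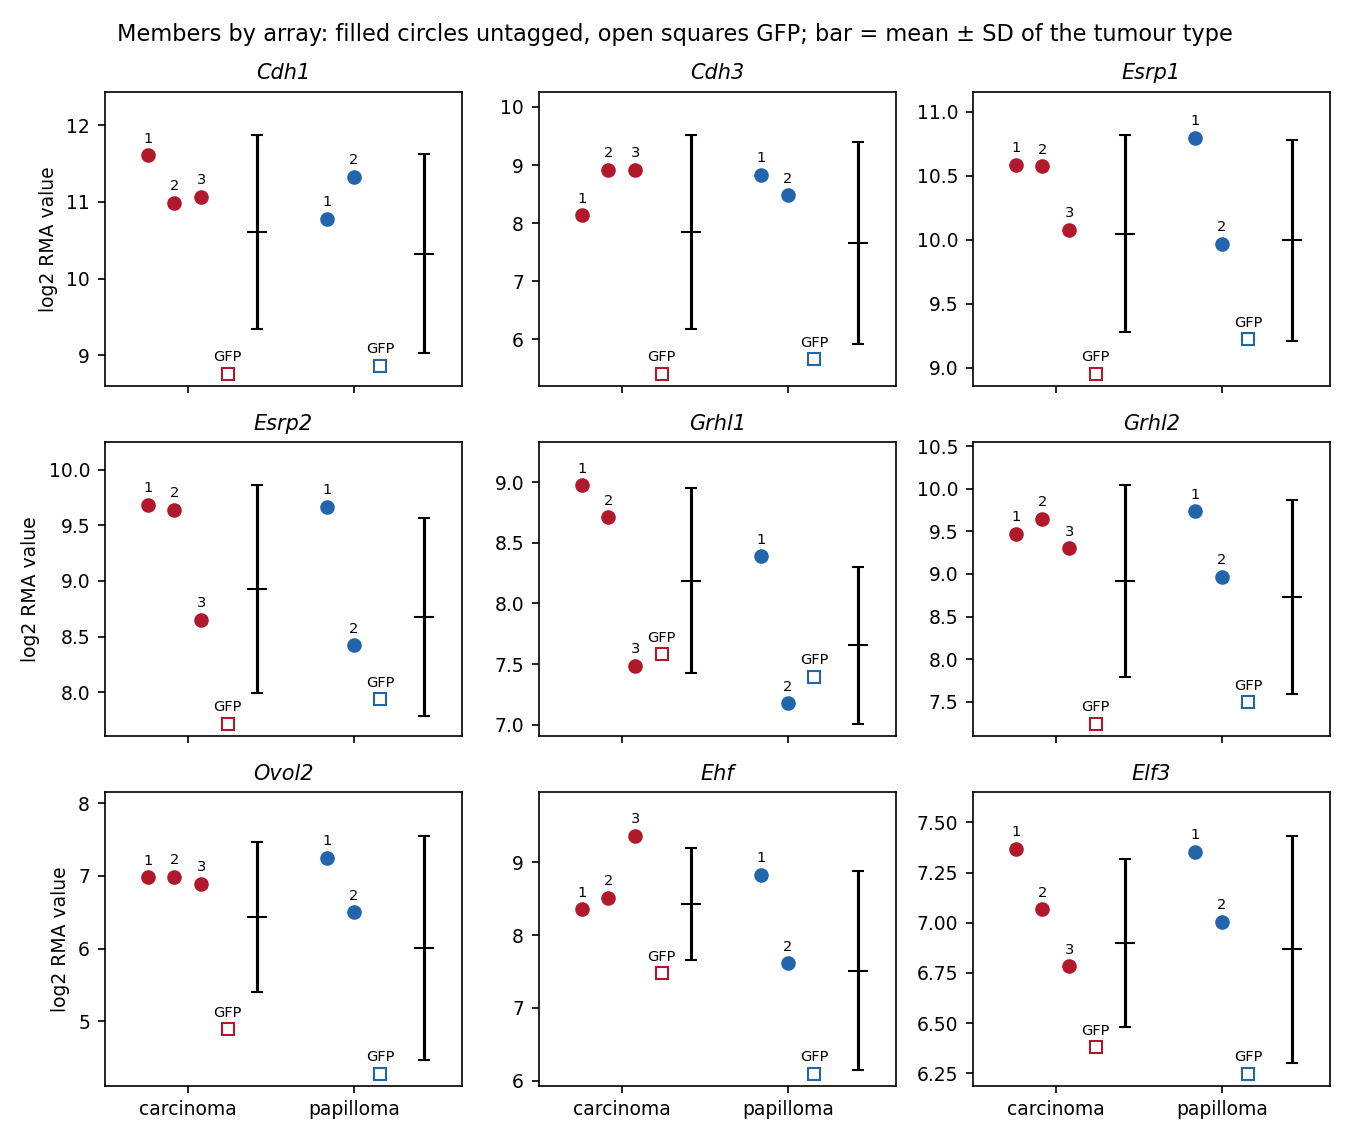
Log2 RMA value (vertical axis, separate scale for each gene) of the brightest probe set of each of the 9 genes in 4 carcinoma and 3 papilloma arrays, each point labelled with its replicate label. Filled circles are untagged arrays, open squares GFP arrays, and bars the mean and SD of each tumour type with GFP arrays included. The squares lie below all circles in 8 genes, with Grhl1 the exception.

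Promoter windows were available in RefSeq (GRCm38.p6) for Elf3, Grhl1 and Ovol2, 3 of the 9 genes. Those of Elf3 and Grhl1 are shown because they lie outside the annotated span of the gene, the Grhl1 one after its end was cut, whereas that of Ovol2 lies inside it. The bases run 5' to 3' toward the annotated start, and capitals mark any match, on either strand, to CACCTG (the E-box to which Snail and Zeb repressors bind), AACCGG (part of the grainyhead consensus) or CCAAT. The Elf3 window lies at chr1:135258473-135258722 on the minus strand and the Grhl1 stretch at chr12:24572037-24572231 on the plus strand, the latter ending where the annotated gene begins.
Elf3: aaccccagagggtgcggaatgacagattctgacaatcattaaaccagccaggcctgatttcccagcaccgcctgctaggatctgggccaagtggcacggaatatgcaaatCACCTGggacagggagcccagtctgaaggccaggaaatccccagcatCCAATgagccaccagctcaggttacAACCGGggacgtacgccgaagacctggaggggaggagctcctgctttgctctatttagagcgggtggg
Grhl1: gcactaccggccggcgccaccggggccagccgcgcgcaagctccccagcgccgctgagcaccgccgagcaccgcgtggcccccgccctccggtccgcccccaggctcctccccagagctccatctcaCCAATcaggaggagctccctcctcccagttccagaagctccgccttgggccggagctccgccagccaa

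Elf3 held 1 E-box, its first base 140 bases before the start, 1 AACCGG at 68 bases and 1 CCAAT at 93 bases. None of the motifs overlapped. The Grhl1 stretch held 1 CCAAT, and the full window of 250 bases 2. No E-box and no AACCGG was in it, and none of the 3 motifs was in the Ovol2 window or in that of a second Grhl1 start. Among 32851 windows of 250 bases, 17.2% held CACCTG, 5.62% AACCGG and 33.8% CCAAT. A match describes letters in the window and no binding was measured.

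No member separated carcinoma from papilloma. In the fit with all 7 arrays, 0 of 9 members passed (limma adjusted p = 1 for each), as did 0 of all 18194 genes, a background of 0%. At an unadjusted p under 0.05 there were 0 of 9 members against 0.616% of all genes, and groups did not overlap for 0 of 9 against 1.42%. The mean was higher in carcinoma for 9 of 9 members, but for 7 of 9 without the GFP arrays, 6 of 9 with the tag as a covariate, 2 of 9 without papilloma GFP and 2 of 9 when arrays were centred on basal keratinocyte genes. On dimmer probe sets the carcinoma mean was lower in Ehf (-0.22 on 1447760_x_at) and Grhl2 (-0.10 on 1431877_a_at, -0.05 on 1452643_at). The same held for Esrp2 (-0.09 on 1419977_s_at) and Cdh3 (-0.03 on 1441255_at). All other probe sets of the members had a higher carcinoma mean. Among all genes 8533 of 18194 had a higher carcinoma mean.

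Each difference was smaller than the SD within either tumour type, except that the one in Ehf exceeded the SD of the carcinomas. For Cdh1 the carcinoma mean was 10.61 ± 1.26 (SD, n = 4) and the papilloma mean 10.32 ± 1.30 (SD, n = 3), which differ by 0.28 with a 95% interval from -1.70 to 2.27. With the GFP arrays included, Ehf showed the largest difference, 0.91 (interval -0.73 to 2.56). Its mean was 8.42 ± 0.77 (SD, n = 4) against 7.51 ± 1.37 (SD, n = 3). Grhl1 followed at 0.53 (-0.61 to 1.68), Ovol2 at 0.43 (-1.53 to 2.39) and Esrp2 at 0.25 (-1.20 to 1.69). Cdh3, Grhl2, Esrp1 and Elf3 differed by 0.19, 0.18, 0.05 and 0.03. The median over the 9 members was 0.25, and that over all genes -0.02. Exact two-sided permutation tests of the single genes, over the 35 assignments of 4 and 3 arrays, gave p between 0.343 for Grhl1 and 0.943 for Esrp1. With the replicate label as a block, no member passed either, and Grhl1 had the largest difference, 0.77 (SE 0.31, limma adjusted p = 0.999).

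Without the GFP arrays the intervals narrowed for 8 of 9 genes, all but Grhl1, and no member passed (limma adjusted p = 0.9998 for every member). Grhl1 then had the largest difference, 0.61 (interval -0.80 to 2.02), followed by Ehf at 0.52 (-0.66 to 1.70). Esrp2, Ovol2 and Esrp1 differed by 0.28, 0.08 and 0.03. Grhl2 differed by 0.12 (interval -0.60 to 0.84), Cdh1 by 0.17 (-0.57 to 0.90), Cdh3 by -0.0012 (-0.79 to 0.79), and Elf3 by -0.11 (-0.75 to 0.53). These intervals still hold changes of more than 0.5 in both directions, so equal levels are not shown. The untagged papillomas differed from each other by more than that in most genes. Papilloma 1 exceeded papilloma 2 by 1.25 in Esrp2, 1.22 in Ehf, 1.21 in Grhl1, 0.83 in Esrp1, 0.77 in Grhl2 and 0.76 in Ovol2, whereas Cdh1 was lower in papilloma 1 by 0.55. Of the 9 genes, 6 had their lowest untagged value in papilloma 2. Both statements hold for the brightest probe sets. For Grhl2 papilloma 1 minus papilloma 2 was -0.98 on 1431877_a_at, -0.72 on 1452643_at and 0.11 on 1431878_at. For Ehf it was -1.64 on 1447760_x_at. Whether the tumour type difference was another in the GFP pair than in the untagged arrays was tested as an interaction. Its estimates ran from -0.50 in Esrp2 to 0.85 in Ehf, and 0 of 9 members and 0% of all genes passed (limma adjusted p = 0.9998 for each member, smallest unadjusted p 0.333).

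**Figure D2:**
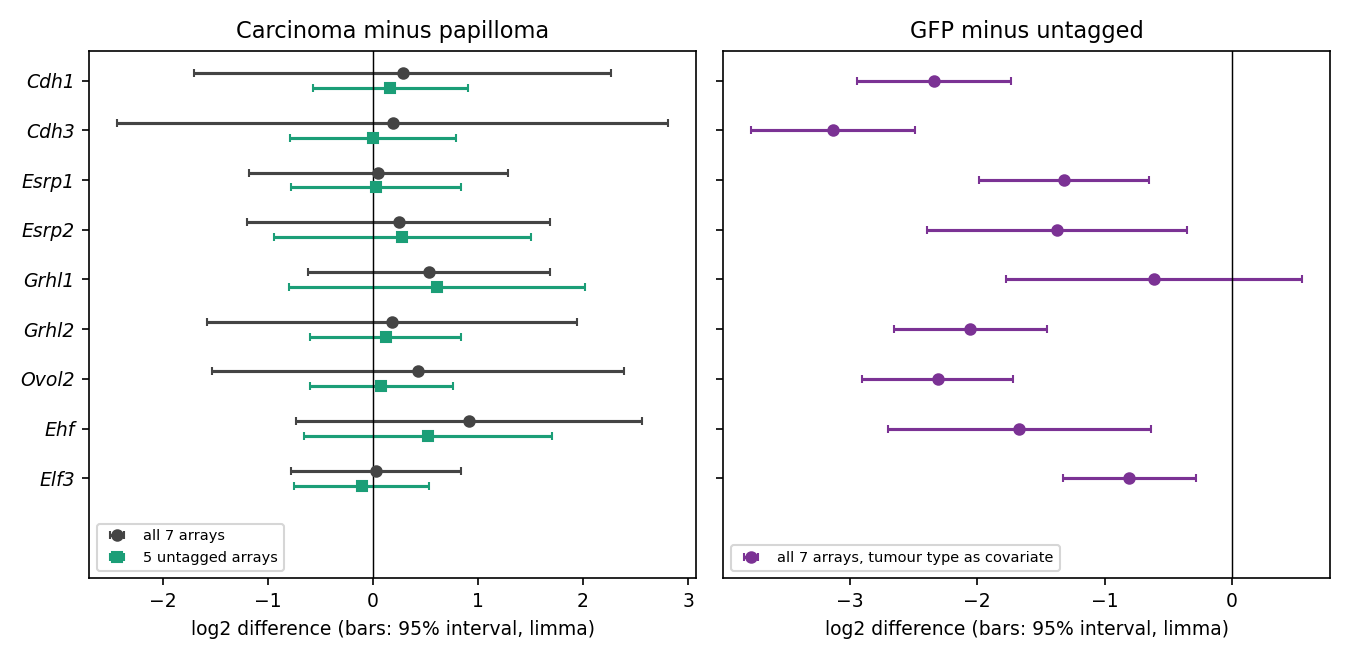
Log2 differences of the 9 genes with 95% intervals from limma: left, carcinoma minus papilloma in all 7 arrays (circles) and in the 5 untagged arrays (squares); right, GFP minus untagged with tumour type as a covariate. All intervals on the left include 0, and on the right all but that of Grhl1 lie below 0.

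Most members fell with the GFP tag. In the fit with tumour type as a covariate, 7 of 9 were lower in the GFP arrays at the threshold and 0 were higher, where 7.93% of all genes were called lower and 11.9% higher. The GFP arrays lay below all untagged arrays for 8 of 9 members, against 19.9% of all genes. The median difference over the 9 members was -1.67, and over all genes -0.05. Called members numbered 3 without carcinoma GFP (Cdh1, Cdh3 and Ovol2), where 1.23% of all genes were called lower, and 4 without papilloma GFP (these and Grhl2), where 1.87% were, fits in which the lone GFP array is assumed to vary like the other arrays. Endothelial and fibroblast markers and the Gapdh 3' to 5' gap moved with the tag, as given above, and their part in these differences was not tested. In RNA from pooled cells, fewer epithelial cells and less of an RNA per cell cannot be told apart.

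On the brightest probe sets Cdh3 had the largest fitted change, and those of Cdh1 and Ovol2 were within an SE of each other. Cdh3 averaged 5.53 in the GFP arrays (n = 2) and 8.66 ± 0.34 (SD, n = 5) in the untagged ones, and the fitted change was -3.13 (SE 0.27, limma adjusted p = 0.000554), or 8.77-fold lower. Both GFP values of Cdh3 lay below the median gene level of 6.64, so the size of this fold is uncertain. Cdh1 averaged 8.81 and 11.16 ± 0.32 (SD, n = 5), with a fitted change of -2.34 (SE 0.25, limma adjusted p = 0.00141). Of the regulators, Ovol2 fell to an average of 4.59 from 6.92 ± 0.27 (SD, n = 5), by -2.31 (SE 0.25, limma adjusted p = 0.00141). Grhl2 fell to 7.37 from 9.42 ± 0.30 (SD, n = 5), by -2.05 (SE 0.25, limma adjusted p = 0.00232). In these 4 genes the GFP arrays lay further below the lowest untagged array than the untagged arrays lay from each other. With all probe sets of a gene averaged, Cdh3 differed by -1.90 and Grhl2 by -0.97 (limma adjusted p = 0.00119 and 0.00971).

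Smaller changes were found in the other genes. Ehf differed by -1.67 (SE 0.43, limma adjusted p = 0.0386), with 7.48 in carcinoma GFP but 6.10 in papilloma GFP. Esrp1 differed by -1.32 (SE 0.28, limma adjusted p = 0.0189). Elf3 differed by -0.81 (SE 0.22, limma adjusted p = 0.0444), a change of 1.75-fold whose call ended with a trended and robust variance prior (adjusted p = 0.0951) and when all probe sets were tested (0.0525). Leaving out single arrays also ended calls: that of Ehf without carcinoma 2 or carcinoma 3, that of Elf3 without carcinoma 1, carcinoma 2 or papilloma 1, and those of Esrp1, Ehf and Elf3 without either GFP array. Esrp2 differed by -1.37 (SE 0.43, limma adjusted p = 0.0689) and did not pass, although its size was close to that of Esrp1; it passed in other fits, with an adjusted p of 0.0498 under a trended and robust prior, 0.0241 with arrays centred on their medians and 0.00196 with array weights. Grhl1 differed by -0.61 (interval -1.77 to 0.55, limma adjusted p = 0.447) and passed only with array weights (0.0403).

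Family partners were compared by the difference of their log2 values within each array, in 4 pairs. Grhl2 differed from the untagged arrays by 1.40 log2 units more than Grhl1, the most extreme of the 21 assignments of 2 and 5 arrays (exact two-sided permutation p = 0.0476, the smallest possible; adjusted p = 0.1905 over the 4 pairs). Cdh3 against Cdh1 gave -0.78 and Ehf against Elf3 -0.94 (exact permutation p = 0.286 and 0.286, adjusted p = 0.381), and Esrp1 against Esrp2 0.07 (exact permutation p = 0.714, adjusted p = 0.714). After adjustment no pair passed. As 0.0476 is the smallest possible p, 1 pair alone could not pass, so this does not show that partners changed alike.

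Basal keratinocyte genes were lower in the GFP arrays as well. The 13 basal keratinocyte genes had a median tag difference of -1.27, with 6 called lower and 0 higher; Sfn, a cell cycle brake, differed by -2.73 and Dsc3, a desmosomal cadherin, by -1.87, whereas Krt5 differed by -0.40 and did not pass. With every array centred on the mean of these genes, Cdh3, Cdh1 and Ovol2 were still called lower, at -1.90, -1.11 and -1.08 (limma adjusted p = 0.00034, 0.0303 and 0.0227), where 0.786% of all genes were. Grhl2 then differed by -0.82 (adjusted p = 0.0650), Ehf by -0.44, Esrp2 by -0.14, Esrp1 by -0.09, and Elf3 and Grhl1 by 0.42 and 0.62, none of which passed. This centring moved the median of all genes from -0.05 to 1.18 and turned the calls over all genes from 60.0% to 98.9% higher. Centring on array medians moved that median to -0.29, with 41.8% of calls higher, and 8 of 9 members were then called lower, against 13.4% of all genes.

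The probe sets of 1 gene did not all change alike. Of the 17 probe sets, 8 were called lower in the GFP arrays and 0 differed between the tumour types, where 6.86% and 0% of all 34958 were called; both GFP arrays were below all others on 13, against 20.2% of all. For Ehf, 1419475_a_at differed by -2.92 (limma adjusted p = 0.0127), 1451375_at by -1.67 and 1419474_a_at by -1.38, while 1447760_x_at, of a kind prone to cross-hybridisation, gave -0.78 (adjusted p = 0.354). The highest value on that probe set was 7.07, in papilloma 2, the array that was lowest of the untagged ones on the other 3 probe sets of the gene. For Grhl2 only the brightest probe set passed, the others giving -0.74, -0.59 and -0.49. Second probe sets of Cdh3 and Esrp2 had untagged means of 4.59 and 5.90, below the median gene level, and differed by -0.67 and -0.29 without passing. Cdh1, Esrp1, Grhl1, Ovol2 and Elf3 rest on 1 probe set each.

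**Figure D3:**
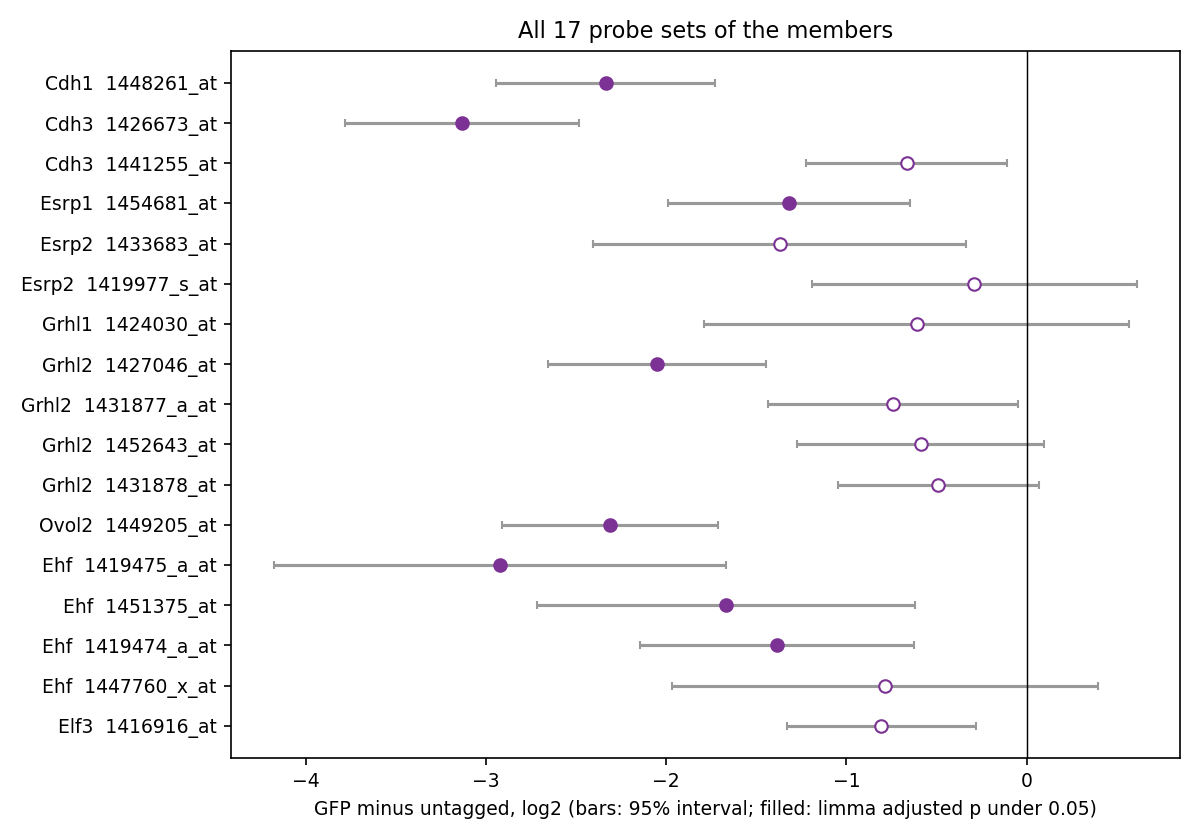
GFP minus untagged difference (log2, horizontal axis) with 95% intervals for each of the 17 probe sets of the 9 genes, filled where the limma adjusted p over all probe sets was under 0.05. All 17 points lie below 0, and 8 are filled.

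Related genes were counted from lists of the same biology. Of 10 measured paralogues and other epithelial regulators, 4 were called lower with the tag and 0 higher (median -1.09). The list shares Trp63 with the basal keratinocyte genes. Klf5, a factor of proliferating epithelium, differed by -2.51 (limma adjusted p = 0.000504), and Ovol1, the paralogue of Ovol2, by -2.20 (adjusted p = 0.00166). Between tumour types 0 of 10 passed, with the largest differences in Grhl3, 1.005 (SE 0.81), and Klf4, 0.50 (SE 0.28), or 1.35 and 0.60 without the GFP arrays. Of 16 genes for epithelial surface proteins, trafficking and proteases, 6 were lower and 0 higher (median -1.06), led by the tight junction protein Cldn4 at -2.75 and Epcam at -2.40. None of the 16 passed between tumour types, where Cldn4 differed by 0.92 (SE 1.11) and Epcam, one of the sorting antigens, by 0.76 (SE 0.93). Without the GFP arrays they differed by 1.06 and 0.25.

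The cytoplasmic partners of cadherins, listed together with the nectins of the cell surface, did not fall with the cadherins as a group. Of the 12 genes on this joint list, 4 were called higher, 1 lower and 7 neither (median 0.73). Nectin3, an adhesion protein, differed by 3.95 (limma adjusted p = 0.000710), and the catenins Ctnna1 and Ctnnb1 by 1.02 and 0.86 (limma adjusted p = 0.0229 and 0.0107). The Ctnna1 value rests on a probe set of the kind prone to cross-hybridisation. Jup, the catenin shared with desmosomes, differed by -1.33 (limma adjusted p = 0.0194). The tumour type fit called 0 of 12, with Nectin3 at 0.53 and Nectin2 at 0.41, or 1.12 and 0.40 without the GFP arrays.

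Other classical cadherins and the repressors lay higher in the GFP arrays where they changed. Of 9 other cadherins measured, 3 were called higher and 0 lower (median 0.14): Cdh5, the endothelial cadherin, by 6.24, Cdh11, found in mesenchymal cells, by 4.86, and Cdh2, N-cadherin, by 2.37 (limma adjusted p = 0.000137, 0.00367 and 0.00376). Of 7 repressors, 4 were higher and 0 lower (median 1.30). Zeb1 had 10.54 and 10.55 in the GFP arrays and 4.51 to 4.93 in the untagged ones, a difference of 5.83 (limma adjusted p = 2.09e-05), followed by Tcf4 at 2.60. The untagged arrays all had Zeb1 below the median gene level. Snai2, read at 10.42 to 11.36 in all 7 arrays, differed by 0.27 (limma adjusted p = 0.557). Its probe set is of the kind prone to cross-hybridisation, so this signal may not be that of Snai2 alone. Between tumour types no gene of either list passed, with Twist1 at 1.22 (SE 0.61) and Zeb1 at -0.63 among the repressors and Cdh5 at -0.54 and Cdh2 at 0.40 among the cadherins. Without the GFP arrays these were 1.66, -0.20, -0.15 and 0.15 (limma adjusted p = 0.9998 for each).

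Marker lists of other cells differed with the tag to unequal extents. Endothelial genes were called higher in 12 of 12 cases (median 5.59), led by Vwf, a clotting protein of vessels, at 7.01 and Cdh5, which is also among the cadherins above. Fibroblast genes were higher in 10 of 11 (median 4.19), led by Pdgfrb at 6.22 and Col1a1 at 4.74. Leukocyte genes were higher in 4 of 9 (median 1.03), with Csf1r at 3.21 and Ptprc at 3.11, and melanocyte genes in 2 of 6 (median 0.33), with Tyrp1 at 1.86 and Dct at 1.46. None of these genes passed between tumour types. The largest differences there were -0.78 for Erg and -0.70 for Kdr, -1.31 for Postn and -0.95 for Lum, 0.35 for Cd68 and 0.33 for Lyz2, and -0.76 for Dct and -0.68 for Tyrp1. Without the GFP arrays they were -0.14, -0.31, -1.77, -1.13, 0.21, 0.51, -0.72 and -0.47 in that order. Among basal keratinocyte genes they were 1.02 for Col17a1 and 0.96 for Lamb3, with 0 of 13 called, and 1.16 and 0.83 without the GFP arrays.

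**Figure D4:**
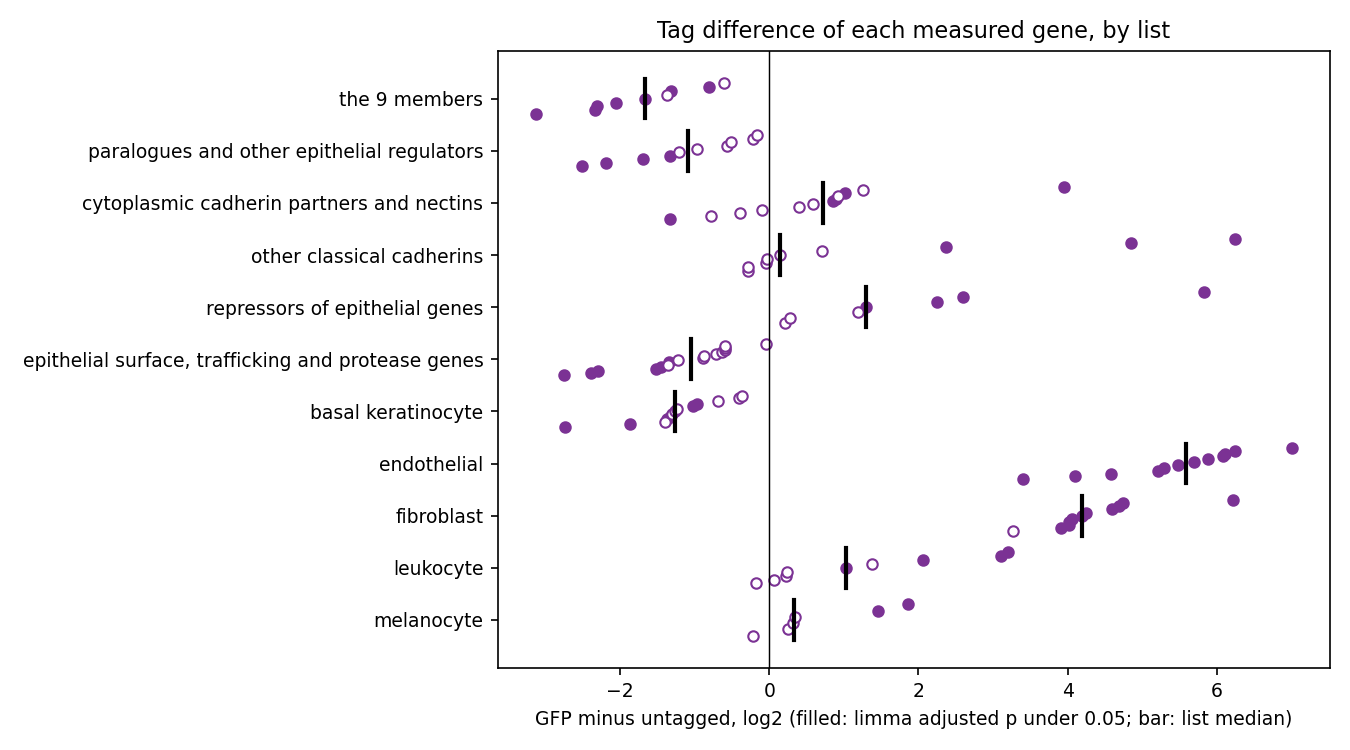
GFP minus untagged difference (log2, horizontal axis) of each measured gene in the 11 lists, with list medians as bars and filled points for genes with a limma adjusted p under 0.05. The members, other epithelial lists and basal keratinocyte genes lie to the left of 0, and endothelial and fibroblast genes to the right.

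Within the tag classes the members varied in different ways. As deviations from the mean of the GFP or the untagged arrays, the 36 pairs of members had correlations from -0.85 (Cdh1 with Cdh3) to 0.96 (Esrp1 with Esrp2), with a median of 0.26, over 7 arrays that share their normalization. Esrp2, Grhl2, Grhl1, Esrp1 and Ovol2 correlated with the mean of the other members at 0.85, 0.83, 0.81, 0.80 and 0.77, whereas Elf3 gave 0.58, Ehf 0.19, Cdh3 -0.07 and Cdh1 -0.40. The cadherins and Ehf had the lowest correlations with the other members once the tag class means were taken out.

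Genes outside the set whose pattern was most like the mean of the 9 members were found among 9089 genes brighter than the median gene. Over the 7 arrays they were Dusp14, a phosphatase of the MAP kinase pathway (r = 0.997), Tfdp1, the partner of E2F factors (0.996), Rassf7 (0.996), Pcgf6, a Polycomb group protein (0.996), and Rbm15b (0.995). Because the arrays form 2 clusters by tag, these values mostly measure the tag difference: Dusp14 averaged 6.51 in the GFP and 8.89 in the untagged arrays. As deviations from the tag class means, the nearest genes were Trappc8, of a vesicle tethering complex (r = 0.999), Ppil4 (0.998), Dynll2, a dynein light chain (0.998), Mast4 (0.997) and Kif20a, a mitotic kinesin (0.996). Like 6 of the 9 members, each had its lowest untagged value in papilloma 2, which for Kif20a was 6.93 against 7.95 to 8.95 in the other untagged arrays. The mean deviation of the members was itself lowest in papilloma 2, at -0.46, so choosing genes by this measure favoured genes low in that array. The correlations are descriptions of these arrays over few points.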

How the data were processed

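RNA of 7 sorted tumour cell samples was measured on Affymetrix mouse arrays. Per the labels' protocols the authors normalized the arrays with RMA, for which the submitters' processing notes list the affy package. The deposited values are on the log2 scale, which was read from their range of 2.72 to 14.51. The sources used here give no software version or chip definition; the labels name a strip version of the array, whereas the annotation is of the standard design.

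Names came from the platform annotation of 2016, updated by gene identifier through RefSeq (GRCm38.p6), which held 34754 of the 34958 probe sets with 1 symbol. Another 932 probe sets had several symbols and 9211 were not listed there, and none of these was used. Each gene was represented by its brightest probe set over the 7 arrays (18194 genes), and the members' 17 probe sets were also tested singly. No filter on dim probe sets was applied.

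Carcinoma was compared with papilloma, and GFP with untagged arrays with tumour type as a covariate, by limma 3.58.1 in R 4.3.3 (lmFit, eBayes), with Benjamini-Hochberg adjustment over all genes and a threshold of 0.05. A further fit tested the interaction of tumour type and tag. The code was tested on simulated data first. The members, the gene lists and the rule for other named genes were chosen with earlier results of these data known: the rule takes the 2 genes of each list with the largest difference in either comparison, and the 5 genes most like the members by each of 2 measures. The tests of family partners were added, and Krt5, Snai2, Ctnna1, Ctnnb1 and the tag difference of Cdh2 named, after their values had been seen.

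The labels 1, 2 and GFP occur in both tumour types. Deviations from the tumour type means correlated at 0.476, 0.194 and 0.861 for the pairs 1, 2 and GFP across genes, so a fit with the replicate label as a block was run. Pairs of other labels reached 0.683 (carcinoma 2 with papilloma 1), so these values do not show that the labels mark pairs.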

Additional observations from a re-analysis of the deposited data

Results flagged for a closer look

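In the carcinoma group of 4 arrays, 1 array lay far from the others for 2 of the 17 probe sets of the members, by Dixon's ratio of the gap to the nearest array over the whole range. For Ovol2 the ratio was 0.953, with carcinoma GFP at 4.90 and the other arrays at 6.89 to 6.99. For Grhl2, on 1427046_at, it was 0.856, with carcinoma GFP at 7.24 and the others at 9.30 to 9.65. In each the distant array carried the GFP tag. Chance picks out about 1 in 20 groups by this ratio.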

How the results depend on the processing

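Between tumour types 0 genes and 0 members passed in every limma fit run, with 37 to 560 genes at an unadjusted p under 0.05. The direction of the members varied with the setting, except that Ehf (0.21 to 1.57) and Grhl1 (0.07 to 0.90) stayed above 0 in every setting. Centring arrays on basal keratinocyte genes turned carcinoma minus papilloma to -0.18 in Cdh1, -0.27 in Cdh3, -0.41 in Esrp1, -0.21 in Esrp2, -0.28 in Grhl2, -0.032 in Ovol2 and -0.43 in Elf3. The replicate block gave -0.17 in Cdh3 and changed no call; no block could be fitted for the tag, since the label GFP is itself the tag. A covariate for the tag gave -0.073 in Cdh3, -0.058 in Esrp1 and -0.037 in Elf3, and without both GFP arrays -0.0012 in Cdh3 and -0.11 in Elf3. Leaving out 1 array at a time gave -0.45 to 0.90 in Cdh1, -0.81 to 0.9997 in Cdh3, -0.33 to 0.45 in Esrp1, -0.12 to 0.74 in Esrp2, -0.44 to 0.74 in Grhl2, -0.44 to 1.05 in Ovol2 and -0.28 to 0.27 in Elf3.

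For the tag, 3601 genes were called, against 6820 with array weights and 12650 with arrays centred on basal keratinocyte genes. That centring left 3 members called, moved their median from -1.67 to -0.44 and turned Grhl1 to 0.62 and Elf3 to 0.42. Averaging all probe sets of a gene gave a median of -1.32. Leaving out 1 array gave 861 to 3955 genes and 3 to 8 members, the fewest without carcinoma GFP. The cause of these shifts was not tested. The number of arrays limits precision: the tag rests on 2 arrays, Ovol2 is dim, and Cdh3 is dim in the GFP arrays.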
